A study of Homo sapiens with 4 samples.

Results

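Cytokine receptor genes of the blood system were followed through hematopoietic differentiation of human pluripotent stem cells (hPSCs). The set comprised 8 receptor genes, KIT, FLT3, CSF1R, EPOR, CSF3R, CSF2RB, CSF2RA and IL3RA, and KITLG, which encodes the ligand of KIT and is no receptor itself. Members were chosen by symbol, and these 9 genes were found among 58274 gene identifiers. Transcriptomes were measured by RNA sequencing in the induced pluripotent stem cell line BC1, of human origin, and in 3 populations sorted as it differentiated. These were mesoderm cells gated on APLNR at day 2 (APLNR+), hemogenic endothelial progenitors gated on CD31 and CD34 at day 5 (CD31+CD34+ HEPs), and hematopoietic progenitors gated on CD43 at day 8 (CD43+ HPCs). BC1 was taken undifferentiated. Differentiating cells were kept in activin A and BMP4 for 2 days and then in VEGF and bFGF. According to the study's methods, interleukin-3, stem cell factor and thrombopoietin entered the medium only in a later culture step that yields CD45+ cells, which was not analysed here. No ligand of a member was named for the medium of the 4 populations. All populations came from this 1 line, and each had 1 library, so the data carry no measure of the variation between cultures or sorts, and no test between populations was run.

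Blood cells arise from endothelial cells, and their survival and growth then depend on cytokines that bind receptors on the cell surface. KIT, FLT3 and CSF1R are class III receptor tyrosine kinases, which dimerise on their ligand and phosphorylate themselves. EPOR, CSF3R, CSF2RB, CSF2RA and IL3RA are cytokine receptors without a kinase of their own and signal through JAK kinases and STAT transcription factors. EPOR, the erythropoietin receptor, is best known in red cell precursors, CSF3R, the G-CSF receptor, in neutrophils and their precursors, and CSF1R, the M-CSF receptor, in monocytes and macrophages.

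Values are FPKM, that is, fragments scaled to transcript length and to the mapped fragments of the library, so that levels can be set side by side between genes. Depth, read from the steps between low values, was between 19450000 and 23400000 mapped fragments per library. The range after each level and fold is an exact 95% interval for counting error alone, from an approximate number of fragments. "Rose" and "fell" are used of a change of at least 1 on the log2(FPKM + 1) scale, on which the fold of a low gene is understated. Marker genes followed the labels of the libraries. The summed level of 5 pluripotency genes was 2752 FPKM in BC1 and 22.7 in CD43+ HPCs, that of 5 mesoderm genes was highest in APLNR+ cells at 1861, that of 6 endothelial genes was highest in CD31+CD34+ HEPs at 1298, and that of 6 blood progenitor genes was highest in CD43+ HPCs at 1434. The genes of the gates followed too: APLNR was highest in APLNR+ cells at 1073 FPKM, CD34 in CD31+CD34+ HEPs at 102, and SPN, which encodes CD43, in CD43+ HPCs at 92.4. PECAM1, which encodes CD31, was at 93.1 FPKM in CD31+CD34+ HEPs and 126 in CD43+ HPCs. PTPRC, which encodes CD45 and was 1 of these 6 genes, did not exceed 0.035 FPKM in any library.

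**Figure D1:**
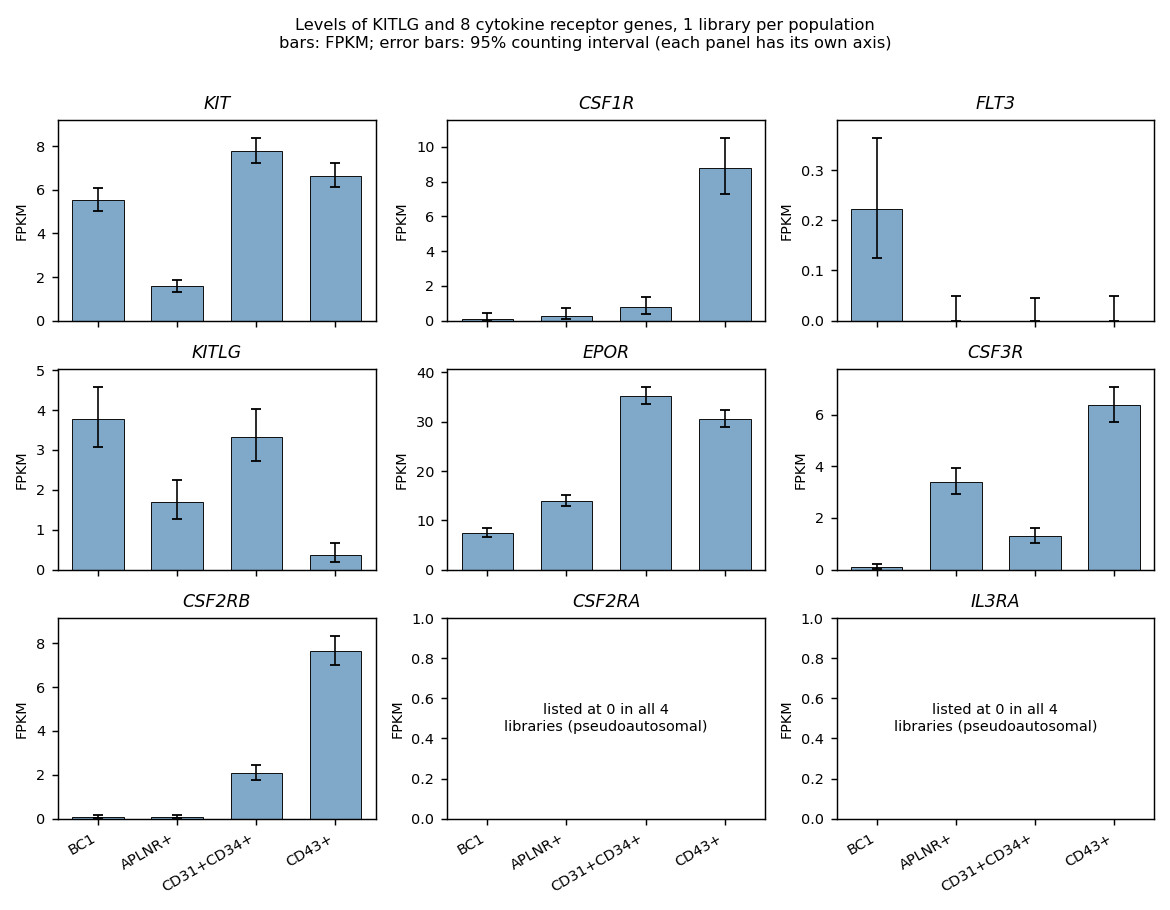
Level of each of the 9 genes in the 4 libraries. Each panel has its own FPKM axis from 0, bars are the value of the 1 library per population, and error bars are 95% counting intervals. KIT was lowest in APLNR+ cells at 1.59 FPKM, EPOR was highest in CD31+CD34+ HEPs at 35.2, CSF1R, CSF2RB and CSF3R were highest in CD43+ HPCs, and CSF2RA and IL3RA were listed at 0 throughout and have no error bars.

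The order of the 4 libraries differed between members. KIT and EPOR were highest in CD31+CD34+ HEPs, CSF1R, CSF2RB and CSF3R in CD43+ HPCs, and KITLG and FLT3 in BC1. The summed level of the set was 17.3 FPKM in BC1, 21.0 in APLNR+ cells, 50.5 in CD31+CD34+ HEPs and 60.4 in CD43+ HPCs. Among the members with a value, EPOR was the highest in every library and made up 43.4%, 66.4%, 69.8% and 50.7% of that sum. CSF2RA and IL3RA, which are given no level below, added nothing to the sum, and the ligand KITLG is part of it. The sum and the shares of EPOR therefore hold for the members with a value only. In bulk samples, a lower share of expressing cells and less RNA per cell cannot be told apart.

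Between BC1 and APLNR+ cells, 1 of the 9 members rose (CSF3R) and 1 fell (KIT). Of the 17137 genes that reached 1 FPKM in 1 or more libraries, 9.15% rose and 9.32% fell in the same comparison. From APLNR+ cells to CD31+CD34+ HEPs, 3 members rose (KIT, CSF2RB and EPOR) and none fell, against 13.0% of those genes rising and 11.4% falling. From CD31+CD34+ HEPs to CD43+ HPCs, 3 members rose (CSF1R, CSF3R and CSF2RB) and 1 fell (KITLG), against 7.63% and 13.5%. The 3 comparisons share libraries, so a value that is high in CD31+CD34+ HEPs enters the second and the third comparison with opposite signs. The counts out of 9 include CSF2RA and IL3RA, which were listed at 0 and are given no level below. Of the other members, FLT3 stayed under 1 FPKM in every library, and 6 reached it in at least 1. The median change of the 6 that did was 0.13, 0.98 and 0.64 on the log2(FPKM + 1) scale in the 3 comparisons. The median over all 17137 genes was 0.0, 0.01 and -0.08. Over all 9 members, with the listed zeros of CSF2RA and IL3RA, it was 0.0, 0.45 and 0.0. CSF1R was among the 6 only through CD43+ HPCs, and CSF2RB only through CD31+CD34+ HEPs and CD43+ HPCs. The choice of the 6 thus favours late rises, and their median is not a result apart from it. Counts of members depend on the pseudocount: with 0.1 in place of 1, CSF1R rose in all 3 comparisons, by 1.14, 1.16 and 3.37 on the log2 scale. Its levels in BC1, APLNR+ cells and CD31+CD34+ HEPs stood for only about 1.0, 4.0 and 11.4 fragments.

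**Figure D2:**
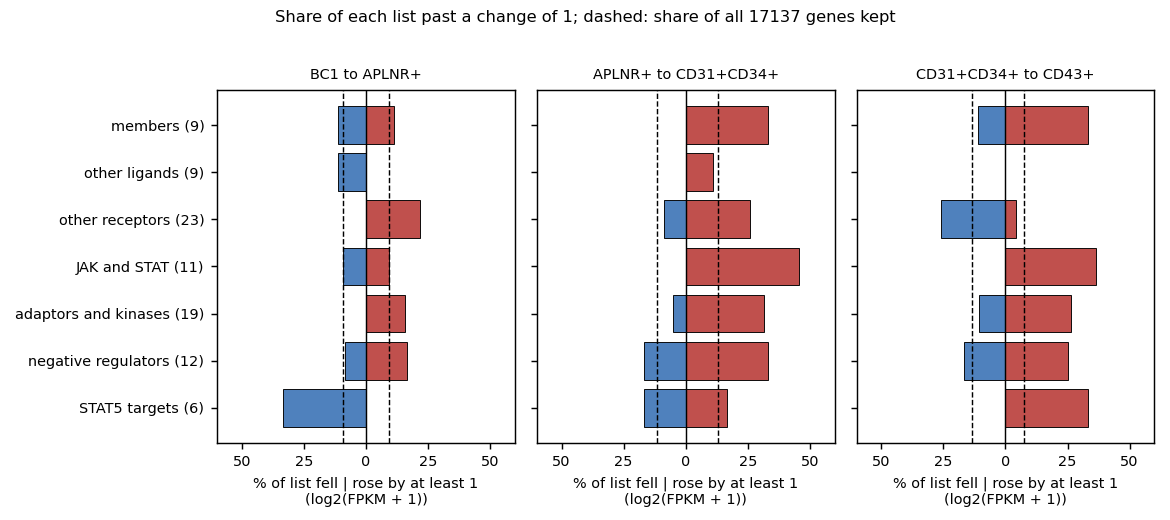
Share of each gene list that rose (red, right) or fell (blue, left) by at least 1 on the log2(FPKM + 1) scale in each comparison, in percent of all genes of the list. Dashed lines mark the share of the 17137 genes that reached 1 FPKM in 1 or more libraries, whereas the lists also count genes that did not. For the 9 members, 3 rose in each of the last 2 comparisons, and none fell from APLNR+ cells to CD31+CD34+ HEPs.

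Among the members with a value, only KIT and EPOR were at 1 FPKM or more in all 4 libraries. KIT (ENSG00000157404.15, GRCh38 chr4:54657918-54740715, plus strand) binds stem cell factor and is used by blood stem and progenitor cells, mast cells and germ cells. Its level was 5.54 FPKM (5.04 to 6.09) in BC1, 1.59 (1.33 to 1.88) in APLNR+ cells, 7.79 (7.24 to 8.37) in CD31+CD34+ HEPs and 6.65 (6.12 to 7.22) in CD43+ HPCs. KIT was thus present in undifferentiated cells, lowest in mesoderm cells, and highest in HEPs. From BC1 to APLNR+ cells it fell 3.50-fold (2.88 to 4.27), a change of -1.34 on the log2(FPKM + 1) scale. From APLNR+ cells to CD31+CD34+ HEPs it rose 4.91-fold (4.09 to 5.94), a change of 1.77. CD43+ HPCs were 1.17-fold lower (1.05 to 1.31) than CD31+CD34+ HEPs and 1.20-fold higher (1.06 to 1.36) than BC1. Both were beyond counting error at the deposited scaling but under the size called a change. The change from CD31+CD34+ HEPs, -0.2, was -0.067 after division by median-of-ratios factors and -0.305 with FPKM rescaled to the same total. Among the 13910 protein-coding genes kept, 37.7%, 17.6%, 42.5% and 42.4% lay below KIT in the 4 libraries. The markers of mast cells, which carry KIT at high levels, summed to 18.8 FPKM in CD43+ HPCs and at most 1.26 elsewhere. HDC, which makes histamine, gave 18.3 of the 18.8 FPKM, and the tryptase gene TPSB2 was at 0 in every library.

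The promoter windows of 4 members follow the members they belong to, since members that rise at the same step can be read side by side. Each is the 300 bases that RefSeq places from 250 before to 50 after a transcript start on GRCh38.p14, written in the direction of transcription. Capitals mark matches, on either strand, to 3 motifs, and positions are counted from the transcript start as 1. The GATA motif was searched as AGATAA, with the alternative last letter as AGATAG, with the alternative first letter as TGATAA, and with both alternatives as TGATAG. The RUNX motif was searched as TGTGGT and also, with C in the middle, as TGCGGT. The E-box was searched as CAGCTG and also, with A in the middle, as CAGATG. Over all 34961 windows of this length, 24.9% held the GATA motif, 19.6% the RUNX motif and 29.7% the E-box. The motif GAGGAAGT, used for PU.1, was in 2.59% of them and in none of the 10 windows of the set. Unlike the others it was searched without alternative letters, so a PU.1 site spelled otherwise would be missed. Windows were found for 8 of the 9 members. A match of letters is not evidence of binding. The windows of KIT and KITLG held no match to any of the 4 motifs. KIT is shown as the CpG-rich case, with 38 CpG in its window where the median of all windows was 14 and the upper quartile 28.
KIT, chr4:54657707-54658006, plus strand: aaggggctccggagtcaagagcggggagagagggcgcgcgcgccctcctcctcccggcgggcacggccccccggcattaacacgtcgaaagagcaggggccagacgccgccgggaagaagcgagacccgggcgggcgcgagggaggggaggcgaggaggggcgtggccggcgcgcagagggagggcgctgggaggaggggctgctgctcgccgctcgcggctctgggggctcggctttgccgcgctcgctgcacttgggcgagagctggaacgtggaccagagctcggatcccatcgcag

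KITLG was the only ligand in the set and, among the members with a value, the only one that fell at the step to CD43+ HPCs. KITLG (ENSG00000049130.14, GRCh38 chr12:88492793-88580851, minus strand) encodes stem cell factor, which stromal and endothelial cells supply to blood progenitors. Its level was 3.77 FPKM (3.07 to 4.57) in BC1, 1.70 (1.26 to 2.24) in APLNR+ cells, 3.32 (2.72 to 4.02) in CD31+CD34+ HEPs and 0.372 (0.185 to 0.667) in CD43+ HPCs. BC1 and CD31+CD34+ HEPs did not differ beyond counting error, at 1.13-fold (0.855 to 1.502). APLNR+ cells were 2.21-fold lower (1.56 to 3.17) than BC1, and CD31+CD34+ HEPs were 1.95-fold higher (1.38 to 2.79) than APLNR+ cells. From CD31+CD34+ HEPs to CD43+ HPCs KITLG fell 8.94-fold (4.79 to 18.5), a change of -1.66 on the log2(FPKM + 1) scale. Both KIT and its ligand were lower in APLNR+ cells than in BC1 and in CD31+CD34+ HEPs, but only KITLG fell at the last step. The ratio of KIT to KITLG in FPKM was 1.47, 0.932, 2.34 and 17.9 in the 4 libraries. The protein-coding transcripts of KITLG run from 555 to 5737 bases, so its number of fragments is uncertain: the CD43+ value stands for 10.9 fragments by the median length, 2.3 by the shortest transcript and 43.3 by the longest. By the shortest, the 1.95-fold has an interval of 0.897 to 4.53, within counting error. The 8.94-fold then has no interval, since 2.3 fragments is under the floor of 3 fragments.

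CSF1R rose at the last step. With a pseudocount of 0.1 the earlier steps were called too, but on few fragments. These were about 1.0 in BC1, under the floor, 4.0 in APLNR+ cells and 11.4 in CD31+CD34+ HEPs. CSF1R (ENSG00000182578.13, GRCh38 chr5:150053291-150113372, minus strand) was at 0.0738 FPKM in BC1, 0.284 (0.0770 to 0.729) in APLNR+ cells, 0.759 (0.384 to 1.34) in CD31+CD34+ HEPs and 8.798 (7.31 to 10.5) in CD43+ HPCs. The rise from CD31+CD34+ HEPs to CD43+ HPCs was 11.6-fold (6.31 to 23.5), a change of 2.48 on the log2(FPKM + 1) scale. The BC1 value stood for 1.0 fragment, so CD43+ HPCs were at least 38.0-fold higher than BC1, counted against a floor of 3 fragments per library. The step from APLNR+ cells to CD31+CD34+ HEPs was 2.67-fold (0.798 to 11.5), within counting error by the median transcript of 921 bases. With the longest transcript, of 3989 bases, the same ratio had an interval of 1.63 to 4.53 and lay beyond counting error. CSF1R lies over RPL7P1, a processed pseudogene on the opposite strand that shares 747 bases with it and was at 4.70 to 6.96 FPKM in the 4 libraries, without the rise of CSF1R. The summed level of 7 myeloid markers was 2.35, 4.53, 9.43 and 14.3 FPKM in the 4 libraries. LYZ, which encodes lysozyme, gave 6.89 FPKM of this in CD31+CD34+ HEPs and 12.7 in CD43+ HPCs. At that step MPO went from 0 to 0.0790 FPKM, and ELANE was at 0 in all libraries. The others were lower in CD43+ HPCs. AZU1 went from 1.64 to 1.32 FPKM, CD14 from 0.587 to 0.0339, ITGAM from 0.248 to 0.104 and PRTN3 from 0.0566 to 0. None of the 7 rose at that step by the size called a change. The part of myeloid cells in the level of CSF1R was not tested.

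Both RefSeq windows of CSF1R are shown because its transcripts start at places far apart, and the FPKM of the gene sums them. The upstream window held 1 GATA match at -137, which overlaps an E-box at -133, and another E-box at -65. The downstream window held 1 RUNX match at -71. The windows held 8 and 4 CpG, both below the median of all windows.
CSF1R, chr5:150113316-150113615, minus strand: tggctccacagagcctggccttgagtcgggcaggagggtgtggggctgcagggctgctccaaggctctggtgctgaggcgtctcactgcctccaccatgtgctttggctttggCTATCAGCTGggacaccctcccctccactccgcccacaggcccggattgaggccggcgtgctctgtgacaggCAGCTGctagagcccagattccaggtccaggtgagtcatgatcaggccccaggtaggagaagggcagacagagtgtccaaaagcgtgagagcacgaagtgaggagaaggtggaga
CSF1R, chr5:150086505-150086804, minus strand: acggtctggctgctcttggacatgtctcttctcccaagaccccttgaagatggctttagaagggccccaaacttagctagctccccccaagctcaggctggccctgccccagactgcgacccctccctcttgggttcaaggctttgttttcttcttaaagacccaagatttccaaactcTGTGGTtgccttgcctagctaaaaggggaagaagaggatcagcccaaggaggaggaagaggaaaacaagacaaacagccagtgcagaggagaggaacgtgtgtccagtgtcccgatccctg

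FLT3 was detected in BC1 only, at a low level. FLT3 (ENSG00000122025.14, GRCh38 chr13:28003274-28100592, minus strand) is the receptor of early lymphoid and myeloid progenitors. It was at 0.222 FPKM (0.126 to 0.363) in BC1, about 15.5 fragments, and at 0 in APLNR+ cells, CD31+CD34+ HEPs and CD43+ HPCs. A floor of 3 fragments stands for 0.0395, 0.0360 and 0.0394 FPKM at these depths, and the exact 95% intervals of the zeros reach 0.0486, 0.0443 and 0.0484. Set against the floor, the BC1 value was at least 5.62-fold, 6.17-fold and 5.64-fold higher than the 3 later populations, without the counting error of BC1 itself. The change on the log2(FPKM + 1) scale was -0.29 and was not called. FLT3LG, the ligand, was at 0.783, 1.39, 3.15 and 1.34 FPKM.

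EPOR was the highest of the members with a value in each library and rose at the step to HEPs. EPOR (ENSG00000187266.13, GRCh38 chr19:11377205-11384342, minus strand) was at 7.49 FPKM (6.65 to 8.40) in BC1, 13.9 (12.8 to 15.1) in APLNR+ cells, 35.2 (33.5 to 37.0) in CD31+CD34+ HEPs and 30.6 (28.99 to 32.4) in CD43+ HPCs. APLNR+ cells were 1.86-fold higher (1.61 to 2.15) than BC1, a change of 0.81 on the log2(FPKM + 1) scale. From APLNR+ cells to CD31+CD34+ HEPs EPOR rose 2.53-fold (2.30 to 2.79), a change of 1.28. CD43+ HPCs were 1.15-fold lower (1.07 to 1.24) than CD31+CD34+ HEPs, so the 4 libraries all differed beyond counting error at the deposited scaling. The size of this last difference depends on the scaling. Its change of -0.196 was -0.049 after division by median-of-ratios factors and -0.312 with FPKM rescaled to the same total. The level of EPOR was near its maximum before the globin genes were: the summed level of 6 erythroid genes was 37.4 FPKM in CD31+CD34+ HEPs and 5992 in CD43+ HPCs, of which HBE1, embryonic epsilon globin, gave 5271. GATA1, an erythroid and megakaryocytic transcription factor, was at 0, 0, 13.4 and 190 FPKM in the 4 libraries, and KLF1 at 0.191, 7.39, 17.9 and 68.7. The part of erythroid cells in the level of EPOR was not tested. EPO, the ligand, did not exceed 0.262 FPKM. EPOR overlaps the end of its neighbour RGL3 by 2 bases on the same strand. RGL3 was at 61.4, 18.2, 13.99 and 7.95 FPKM, lower where EPOR was higher in the first 2 comparisons and lower with it in the last.

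The EPOR window is shown because it held the most matches of the set. It held 1 GATA match at -78, read as TTATCT on this strand, and 4 E-boxes at -248, 4, 23 and 35, the last 3 of them downstream of the start.
EPOR, chr19:11384265-11384564, minus strand: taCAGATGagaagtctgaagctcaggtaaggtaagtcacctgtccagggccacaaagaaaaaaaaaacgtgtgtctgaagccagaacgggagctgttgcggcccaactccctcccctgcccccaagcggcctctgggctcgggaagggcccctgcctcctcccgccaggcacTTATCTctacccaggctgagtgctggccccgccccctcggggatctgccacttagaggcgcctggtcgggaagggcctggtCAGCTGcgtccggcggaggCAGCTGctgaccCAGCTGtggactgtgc

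CSF3R rose from BC1 to APLNR+ cells and did not follow a single direction afterwards. CSF3R (ENSG00000119535.17, GRCh38 chr1:36466043-36483278, minus strand) was at 0.0925 FPKM (0.0285 to 0.222) in BC1, 3.40 (2.93 to 3.92) in APLNR+ cells, 1.30 (1.03 to 1.63) in CD31+CD34+ HEPs and 6.36 (5.71 to 7.06) in CD43+ HPCs. The mesoderm library was thus above the HEP library and below the HPC library. The rise to APLNR+ cells was 36.8-fold (15.04 to 120.5), from about 4.7 fragments in BC1. The protein-coding transcripts of CSF3R run from 512 to 3454 bases. By the shortest, the BC1 value stands for 0.5 fragments, under the floor, and this fold has no interval. CD31+CD34+ HEPs were 2.61-fold lower (1.99 to 3.44) than APLNR+ cells, a change of -0.93 on the log2(FPKM + 1) scale that fell short of a call and was -1.32 with a pseudocount of 0.1. The rise from CD31+CD34+ HEPs to CD43+ HPCs was 4.88-fold (3.81 to 6.32), and CD43+ HPCs exceeded APLNR+ cells by 1.87-fold (1.56 to 2.25). CSF3, the ligand, was at 0 in all 4 libraries.

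The CSF3R windows are shown for comparison with CSF1R, which rose at the same last step. The upstream window held 1 RUNX match at 15 and 1 E-box at -100, and the downstream window held 1 E-box at 27. They held 3 and 9 CpG, both below the median of all windows.
CSF3R, chr1:36483265-36483564, minus strand: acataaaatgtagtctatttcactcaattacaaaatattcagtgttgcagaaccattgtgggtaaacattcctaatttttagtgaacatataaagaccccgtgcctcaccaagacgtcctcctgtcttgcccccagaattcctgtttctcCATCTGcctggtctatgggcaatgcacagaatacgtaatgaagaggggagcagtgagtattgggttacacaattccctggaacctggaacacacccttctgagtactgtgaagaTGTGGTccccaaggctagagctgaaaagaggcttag
CSF3R, chr1:36482864-36483163, minus strand: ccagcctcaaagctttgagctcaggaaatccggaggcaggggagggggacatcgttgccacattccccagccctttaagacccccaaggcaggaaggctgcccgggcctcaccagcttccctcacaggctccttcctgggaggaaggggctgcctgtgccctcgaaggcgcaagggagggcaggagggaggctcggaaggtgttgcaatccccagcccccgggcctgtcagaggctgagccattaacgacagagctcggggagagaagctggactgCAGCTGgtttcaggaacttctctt

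CSF2RB rose at each of the last 2 steps. CSF2RB (ENSG00000100368.13, GRCh38 chr22:36913628-36940449, plus strand) encodes the beta subunit shared by the receptors for GM-CSF, interleukin-3 and interleukin-5, which is needed for signalling and pairs with a ligand-specific alpha subunit. Its level was 0.0703 FPKM (0.0208 to 0.172) in BC1, 0.0731 (0.0237 to 0.170) in APLNR+ cells, 2.10 (1.78 to 2.45) in CD31+CD34+ HEPs and 7.63 (6.99 to 8.31) in CD43+ HPCs. BC1 and APLNR+ cells did not differ beyond counting error, at 1.04-fold (0.231 to 4.88), and each stood for 5.0 fragments or fewer by the median transcript length. The rise to CD31+CD34+ HEPs was 28.7-fold (12.0 to 89.5), and that to CD43+ HPCs was a further 3.64-fold (3.04 to 4.38). The protein-coding transcripts of CSF2RB run from 969 to 4863 bases. By the shortest, BC1 and APLNR+ cells stand for 1.0 and 1.1 fragments, under the floor, and the 28.7-fold has no interval. The 3.64-fold then has one of 2.46 to 5.51. Of the alpha subunits that pair with it, IL5RA did not exceed 0.170 FPKM in any library.

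The alpha subunits CSF2RA (ENSG00000198223.16, GRCh38 chrX:1268800-1310381, plus strand) and IL3RA (ENSG00000185291.11, GRCh38 chrX:1336616-1382689, plus strand) were listed at 0 in all 4 libraries, on the rows of chromosome X and of chromosome Y alike. Both genes lie in the pseudoautosomal region, which X and Y share with identical sequence. The table lists 45 genes with a row on each of the 2 chromosomes, or 90 identifiers, and 89 of these were at 0 in every library. Of the 18 protein-coding genes among them, 17 were at 0, against 9.36% of the other 19770 protein-coding genes. The zeros included CD99 and SLC25A6, named after their values were seen, which cells of most kinds use. CSF2RA and IL3RA are therefore described here as listed at 0 only, and no level, limit or fold is given. CRLF2 and IL9R, which lie in pseudoautosomal regions too, were also listed at 0.

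Of the 9 other ligands examined, CSF2, CSF3, IL3 and IL5 were at 0 in all 4 libraries, and 4 reached 1 FPKM in at least 1. CSF1, the ligand of CSF1R, was at 0.911, 1.52, 4.81 and 2.43 FPKM in BC1, APLNR+ cells, CD31+CD34+ HEPs and CD43+ HPCs. It rose 3.17-fold (2.02 to 5.16) from APLNR+ cells to CD31+CD34+ HEPs. IL34, the other ligand of CSF1R, was at 1.89 FPKM in BC1 and fell 5.98-fold (2.64 to 15.9) to 0.316 in APLNR+ cells. THPO, thrombopoietin, did not exceed 1.09 FPKM.

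Of 23 other cytokine and growth factor receptors, 16 reached 1 FPKM in at least 1 library. The 23 include CRLF2 and IL9R, whose listed 0 is not read as a level. From BC1 to APLNR+ cells 5 rose and none fell. From APLNR+ cells to CD31+CD34+ HEPs 6 rose and 2 fell, and from CD31+CD34+ HEPs to CD43+ HPCs 1 rose and 6 fell. The summed level of 5 megakaryocytic genes was 27.8 FPKM in CD31+CD34+ HEPs and 2180 in CD43+ HPCs, where PF4, platelet factor 4, was at 1674.

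IL6ST, which encodes gp130, the shared subunit of the interleukin-6 receptor family, was at 1.25, 19.6, 44.98 and 51.8 FPKM, and rose 15.7-fold (12.0 to 20.9) and then 2.29-fold (2.13 to 2.47) in the first 2 comparisons. LIFR, which pairs with gp130, was at 2.79, 42.1, 37.5 and 1.38 FPKM. It rose 15.1-fold (12.6 to 18.3) from BC1 to APLNR+ cells and fell 27.1-fold (21.2 to 35.2) from CD31+CD34+ HEPs to CD43+ HPCs. IL6R, the interleukin-6 receptor, was at 2.54, 7.49, 0.293 and 0.778 FPKM. From APLNR+ cells to CD31+CD34+ HEPs it fell 25.5-fold (11.6 to 69.1). LEPR, the leptin receptor, was at 0.770, 0.980, 10.1 and 9.50 FPKM and rose 10.3-fold (8.16 to 13.1) at that step, where KIT and EPOR rose too.

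**Figure D3:**
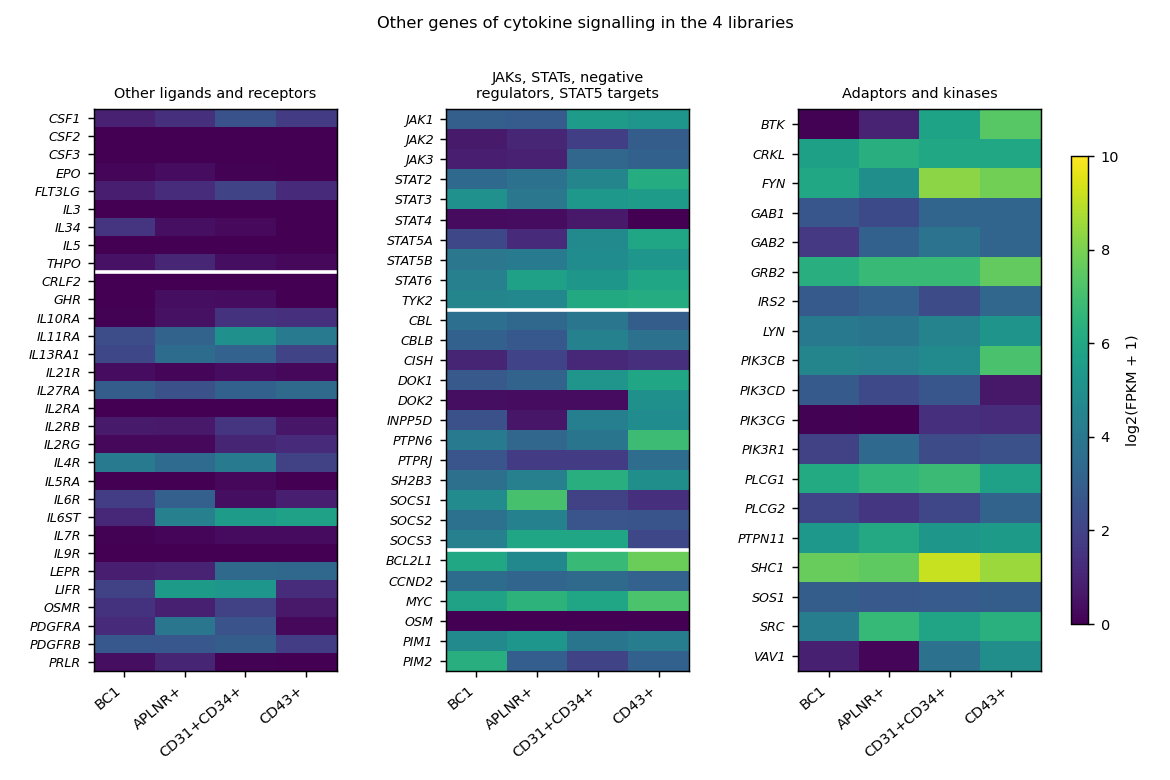
Levels of other genes of cytokine signalling in the 4 libraries, coloured by log2(FPKM + 1). White lines separate the lists within a panel: other ligands above other receptors on the left, JAK and STAT genes above negative regulators and STAT5 targets in the middle, and adaptors and kinases on the right. STAT5A was at 1.27 FPKM in APLNR+ cells and 58.0 in CD43+ HPCs, and BTK was at 0.0438 in BC1 and 166 in CD43+ HPCs.

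The JAK kinases and STAT factors that cytokine receptors use rose more often than they fell in the last 2 comparisons. Of 11 JAK and STAT genes, 1 rose and 1 fell from BC1 to APLNR+ cells, 5 rose and none fell to CD31+CD34+ HEPs, and 4 rose and none fell to CD43+ HPCs. Of all 17137 genes, 9.15%, 13.0% and 7.63% rose and 9.32%, 11.4% and 13.5% fell in the same 3 comparisons. The median change of the 10 that reached 1 FPKM was 0.1, 1.17 and 0.5, and that of all 11 was 0.10, 0.94 and 0.42. STAT5A, which acts downstream of EPOR, KIT and the beta common receptors, was at 3.47, 1.27, 26.7 and 58.0 FPKM. It rose 21.1-fold (16.7 to 26.9) from APLNR+ cells to CD31+CD34+ HEPs and 2.17-fold (2.05 to 2.30) to CD43+ HPCs. JAK1, which serves the gp130 receptors among others, was at 7.21, 6.60, 44.6 and 37.5 FPKM and rose 6.76-fold (6.23 to 7.34) at the step to CD31+CD34+ HEPs. JAK2, the kinase bound by EPOR and CSF2RB, was added after its values were seen. It was at 0.634, 1.12, 2.62 and 6.80 FPKM, higher in each library than in the one before. STAT2, best known for interferon signalling, rose 3.22-fold (3.04 to 3.42) at the last step, to 72.8 FPKM. STAT6 rose 2.65-fold (2.20 to 3.21) and STAT3 fell 2.25-fold (2.06 to 2.46) from BC1 to APLNR+ cells.

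Of 19 adaptors and kinases downstream of the receptors, 3 rose and none fell in the first comparison, 6 rose and 1 fell in the second, and 5 rose and 2 fell in the third. Over all 17137 genes, the shares were 9.15%, 13.0% and 7.63% rising and 9.32%, 11.4% and 13.5% falling. BTK, a kinase of blood cells, was at 0.0438, 0.957, 55.2 and 166 FPKM. It rose 57.7-fold (43.0 to 79.1) to CD31+CD34+ HEPs and 3.01-fold (2.89 to 3.15) to CD43+ HPCs, the steps at which CSF2RB rose. VAV1, an exchange factor of blood cells, was at 0.821, 0.0909, 12.6 and 29.8 FPKM and rose 139-fold (58.0 to 447) to CD31+CD34+ HEPs. That fold starts from about 4.7 fragments in APLNR+ cells, so its size is uncertain. SRC rose 6.00-fold (5.67 to 6.36) and PIK3R1, the regulatory subunit of phosphoinositide 3-kinase, 3.39-fold (2.61 to 4.45) from BC1 to APLNR+ cells, and PIK3R1 then fell 2.50-fold (2.00 to 3.13). The catalytic subunits parted at the last step. PIK3CB rose 5.32-fold (4.92 to 5.75) to 140 FPKM, and PIK3CD fell 9.31-fold (7.14 to 12.4) to 0.572. PLCG1, a phospholipase used by receptor tyrosine kinases, fell 2.15-fold (2.08 to 2.22) at that step.

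Of 12 negative regulators of these pathways, 2 rose and 1 fell in the first comparison, 4 rose and 2 fell in the second, and 3 rose and 2 fell in the third. Among all 17137 genes, 9.15%, 13.0% and 7.63% rose and 9.32%, 11.4% and 13.5% fell. SOCS1, which blocks JAK kinases, was at 27.4, 135, 2.82 and 1.62 FPKM and fell 47.8-fold (38.3 to 60.3) from APLNR+ cells to CD31+CD34+ HEPs. SOCS3, which binds gp130 and CSF3R, was at 19.5, 58.2, 60.2 and 3.48 FPKM. It fell 17.3-fold (14.1 to 21.5) at the last step, where CSF3R rose. SOCS2 fell 3.78-fold (3.12 to 4.61) to CD31+CD34+ HEPs, to 5.27 FPKM. The phosphatase genes INPP5D and PTPN6 rose in the later populations. INPP5D, the lipid phosphatase SHIP1, was at 4.60, 0.526, 19.0 and 27.7 FPKM, and rose 36.0-fold (26.8 to 49.7) to CD31+CD34+ HEPs after falling 8.73-fold (6.38 to 12.2). PTPN6, the phosphatase SHP-1 that docks on EPOR and KIT, was at 15.8, 8.77, 13.7 and 115 FPKM and rose 8.34-fold (6.88 to 10.2) to CD43+ HPCs. DOK1 rose 4.47-fold (3.94 to 5.09) to CD31+CD34+ HEPs, and DOK2 was at 0.270 FPKM there and rose 116-fold (40.3 to 545) to 31.4 in CD43+ HPCs. The DOK2 value in CD31+CD34+ HEPs stood for about 3.1 fragments, just over the floor, so the size of this fold is uncertain. SH2B3, the adaptor LNK that restrains EPOR signalling, was at 12.0, 19.3, 76.2 and 30.7 FPKM. It rose 3.94-fold (3.64 to 4.27) to CD31+CD34+ HEPs and fell 2.48-fold (2.32 to 2.65) to CD43+ HPCs.

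Of 6 genes known as targets of STAT5, none rose and 2 fell in the first comparison, 1 rose and 1 fell in the second, and 2 rose and none fell in the third. BCL2L1, a survival factor of erythroid cells, was at 63.5, 24.4, 109 and 214 FPKM. It fell 2.60-fold (2.29 to 2.96) to APLNR+ cells and rose 4.45-fold (3.96 to 5.02) to CD31+CD34+ HEPs, as KIT did. PIM2 fell 11.2-fold (9.63 to 13.2) from BC1 to APLNR+ cells and rose 2.44-fold (1.90 to 3.18) from CD31+CD34+ HEPs to CD43+ HPCs. PIM1 fell 2.67-fold (2.45 to 2.91) to CD31+CD34+ HEPs, and MYC rose 2.44-fold (2.29 to 2.60) to CD43+ HPCs. OSM was at 0 in all libraries. The background of all 6 lists is the share of the 17137 genes given above: 9.15%, 13.0% and 7.63% rising and 9.32%, 11.4% and 13.5% falling in the 3 comparisons. The list totals, unlike this background, include genes that did not reach 1 FPKM.

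The class III receptor genes lie beside related receptor genes, and neighbours differed in their course. KIT lies between PDGFRA, 359670 bases before its start, and KDR, 337543 bases beyond its end. PDGFRA, a receptor of mesoderm and mesenchyme, was at 1.37, 14.3, 4.96 and 0.151 FPKM and was highest in APLNR+ cells, where KIT was lowest. KDR, the main VEGF receptor of endothelial cells, was at 33.1, 70.0, 569 and 38.0 FPKM. KIT and KDR were thus both highest in CD31+CD34+ HEPs, but KDR fell 14.97-fold (14.5 to 15.4) at the last step where KIT was 1.17-fold lower. CSF1R and PDGFRB are separated by 464 bases on the same strand. PDGFRB, a receptor of stromal cells, was at 5.67, 5.50, 6.69 and 2.56 FPKM. Where CSF1R rose 11.6-fold, at the last step, PDGFRB fell 2.62-fold (1.71 to 4.10). FLT1, the neighbour of FLT3 at 199751 bases, was added after its values were seen. It was at 21.7, 9.65, 100 and 16.9 FPKM, while FLT3 was at 0 in the last 3 libraries.

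**Figure D4:**
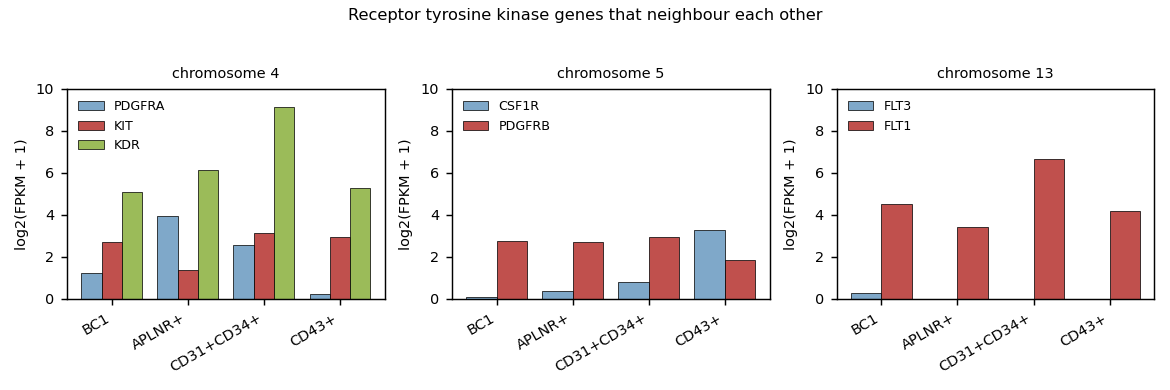
Levels of KIT, CSF1R and FLT3 and of the receptor tyrosine kinase genes beside them, as log2(FPKM + 1) in the 4 libraries, 1 value per library. KIT was lowest in APLNR+ cells, where PDGFRA was highest at 14.3 FPKM, CSF1R rose in CD43+ HPCs, where PDGFRB was lowest at 2.56 FPKM, and FLT1 reached 100 FPKM in CD31+CD34+ HEPs, where FLT3 was at 0.

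The protein-coding genes with the most similar course were found for the 5 members that reached 5 FPKM, by Euclidean distance of log2(FPKM + 1) over the 4 libraries among 13910 genes. The distance of 4 values takes in level as well as shape. EPOR had the closest set, with 9 genes within 0.5, among them ARMCX3 at 0.37 and KCTD20 at 0.40. ARMCX3 was at 9.40, 13.3, 37.6 and 26.5 FPKM. CSF2RB had CD33 at 0.26, DDX60L at 0.34 and NINJ2 at 0.45. CD33, a surface antigen of myeloid progenitors, was at 0, 0.171, 2.37 and 6.67 FPKM. CSF1R had TNFAIP8L2 at 0.21, STX11 at 0.41 and APOBR at 0.46, each under 1 FPKM until CD43+ HPCs, and TNFAIP8L2 reached 9.01 FPKM there. KIT had SEPT4 at 0.44, ARID5A at 0.45 and C1GALT1C1 at 0.53. CSF3R had no gene within 0.5, and DOK6 at 0.75, PDE8B at 0.79 and TDRD7 at 0.83 were its nearest.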

How the data were processed

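Total RNA of each of the 4 populations gave 1 RNA-seq library (Illumina TruSeq kit). The authors deposited 1 table of gene-level FPKM values, with 58365 rows for 58274 identifiers. The submitters' processing notes name BWA, Bowtie, RSEM and hg19 without roles, whereas 58011 identifiers are in GENCODE release 29 and the loci of the members match it on GRCh38, the build used here. Versions, strand and the treatment of reads with several matches are not given in the sources used here. Sequencing was done at 2 companies, and which library was run where is not given in the sources used here, so a batch cannot be told apart from the populations. Columns were assigned to populations by name. Rows of 1 identifier were summed.

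FPKM is no count, so no count model was used, and with 1 library per population no test was possible. Values were compared as log2(FPKM + 1), over the genes that reached 1 FPKM in 1 or more libraries, with a change of at least 1 called. Depth was fitted from the steps between low values of genes with 1 transcript of 1000 to 6000 bases. From 92.2% to 94.5% of these values fell within 0.1 of a whole number of fragments. The length taken off each transcript was 255 to 280 bases. Each gene's fragments were estimated with the median length over its protein-coding transcripts, and folds carry exact Clopper-Pearson 95% intervals. The floor was set at 3 fragments. Intervals and floors cover counting error only. Python 3.11.15, NumPy 2.4.6, pandas 2.3.3, SciPy 1.17.1 and matplotlib 3.10.9 were used, and the scripts were tested on simulated data.

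The members, the 6 pathway lists (other ligands, other receptors, JAK and STAT, adaptors and kinases, negative regulators, STAT5 targets; 80 genes) and the 10 marker lists were chosen with earlier results of these data known. Named genes were all members, in each pathway list the 2 largest rises and the 2 largest falls past 1 per comparison, the 3 nearest genes of each member with at least 5 FPKM, and marker genes. Some genes of this rule are not reported here. Gene-level values sum all transcripts of a gene. The remaining marker lists gave summed levels, in the order BC1, APLNR+, CD31+CD34+, CD43+, of 4.04, 2.85, 3.28 and 17.7 FPKM for lymphoid genes, where CD7 gave 15.6 of the last, and 32.2, 30.5, 200 and 35.5 for stromal genes, mostly COL1A1. PDGFRB is in the stromal and the receptor list. Alternatives were another pseudocount, threshold, filter and scaling, the highest row in place of the sum, and other transcript lengths.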

Additional observations from a re-analysis of the deposited data

How the results depend on the processing

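No value of a member reversed its direction under any alternative run. Counts of members, pathway genes and all genes past the threshold stayed within 1.5 times when FPKM was rescaled to the same total, divided by median-of-ratios factors, taken from the highest row or left unfiltered. The order of the libraries, recomputed with median-of-ratios factors alone, was the same for the 7 members with a value. The change of EPOR from CD31+CD34+ HEPs to CD43+ HPCs moved with the scaling. It was -0.196 as deposited, -0.049 with these factors and -0.312 with the same total. With a pseudocount of 0.1, which weights low values more, 2 members rose (CSF3R and CSF1R) and 2 fell (KIT and KITLG) from BC1 to APLNR+ cells, and 1 fell (CSF3R) from APLNR+ cells to CD31+CD34+ HEPs, where CSF1R was called too. Pathway genes then numbered 17 rising and 9 falling in the first comparison (11 and 5 with a pseudocount of 1) and 10 falling in the second (6), and all genes falling numbered 2575 in the first (1597) and 3488 in the last (2321). With a change of at least 2, no member fell in the first comparison, none rose in the second, and 1 rose and 0 fell in the last. Pathway genes rising were then 5, 11 and 4 in the 3 comparisons (11, 23 and 15 at 1) and falling 1, 2 and 5 (5, 6 and 10). All genes rising were 460, 699 and 391 (1568, 2229 and 1307) and falling 393, 539 and 741 (1597, 1957 and 2321). Among genes of at least 5 FPKM, 1019 fell in the first comparison, and 0 members fell in the last, since KITLG did not reach 5 FPKM. With fragments from the shortest transcript, chosen after seeing the data, 18 ratios between libraries of a member had an interval without 1, against 30 with the median length. A ratio with a library at or under the floor has no interval and is in neither number. By the shortest transcript more ratios had no interval, among them ratios of KITLG, CSF1R, CSF2RB and CSF3R. No paired analysis was possible because each population had 1 library, and no replicate could be left out for the same reason. By the median transcript length, CSF1R, CSF2RB and CSF3R in BC1, and CSF1R and CSF2RB in APLNR+ cells, stood for 5.0 fragments or fewer. By the longest transcript these were 5.4, 6.3 and 5.8 in BC1, and 22.4 and 7.1 in APLNR+ cells.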
